A study of Mus musculus with 16 samples.

Results

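Spinocerebellar ataxias are dominantly inherited disorders in which the cerebellum degenerates and movement loses its coordination. The genes behind them encode unrelated proteins. In some, a lengthened stretch of CAG codons adds a run of glutamines to the protein, and in others a repeat outside the coding part or another change in the gene does the harm. Purkinje cells, the output neurons of the cerebellar cortex, are among the cells most often lost, and they are also affected in ataxia telangiectasia, a recessive ataxia in which the kinase ATM is missing.

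The expression of 8 mouse counterparts of these genes was examined in cerebellar cortex: Atxn1, Atxn2, Atxn3, Atxn7, Atxn10, Cacna1a, Fgf14 and Ttbk2. All probes whose accession belongs to one of them were taken, which gave 14 of the 37253 probes tested and 8 of 22911 named genes on the arrays, of which 16737 were tested. All 14 probes were detected on all 16 arrays. RNA of 16 mice was hybridised to single-colour Agilent arrays, with 4 mice in each of 4 groups. WT veh and WT NR were wild type littermates, and Atm-/- veh and Atm-/- NR carried the disrupted Atm allele of the strain B6;129S4-Atmtm1Bal/J on both chromosomes, so that Atm was lost in the whole animal. The NR groups drank nicotinamide riboside, a precursor of NAD+, at 3.5 mg/ml from an age of 6 weeks for 2 months, while the veh groups drank water alone. By the labels all mice were male and 3.5 months old. Levels are log2 values of the background-subtracted signal after quantile normalization, on which a difference of 1 is a doubling, and errors of group means are SDs over 4 mice. A probe was called changed at a limma adjusted p under 0.05, corrected over all tested probes. Levels of different genes were not set against each other. Probes of the same gene were ranked by their mean level, and their changes were compared within arrays.

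Wild type arrays lay on slide 1 and Atm-/- arrays on slide 2, with veh arrays in row 1 and NR arrays in row 2 of each, so that genotype and slide, and NR and row, cannot be told apart. Probes well above background numbered 34945 to 37817 on the Atm-/- NR arrays and 39134 to 41905 on the Atm-/- veh arrays, without overlap. All 7 Purkinje cell and all 7 granule cell markers were detected on all 16 arrays. WT veh 4 stood apart, with a mean of 5.501 for the 4 measured of 5 choroid plexus markers and 3.67 for the 4 forebrain neuron markers, in log2 units from the mean of all arrays, beside -0.58 for Purkinje cell and -0.45 for granule cell markers. Atm-/- veh 3 had a mean of 2.33 for the 3 blood markers, where the other arrays lay between -0.74 and 0.29, and the highest mean of all arrays for the endothelium markers, 0.47. Against the labelled sex, Y-linked genes gave no signal in replicates 1 and 4 of WT NR, replicate 3 of Atm-/- veh and replicate 4 of Atm-/- NR. In RNA of whole tissue, fewer cells of a type and less RNA per cell cannot be told apart.

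Atm was read first, as a check of the labels. Its dimmer probe was lower in both Atm-/- groups, with a log2 difference of -0.87 (SE 0.08, adjusted p = 0.00032) in Atm-/- veh against WT veh and of -0.76 (SE 0.08, adjusted p = 0.0014) in Atm-/- NR against WT NR. The groups did not overlap in either comparison. Its brighter probe differed by -0.35 (SE 0.11, adjusted p = 0.22) and -0.12 (SE 0.11, adjusted p above 0.99), and where the probes lie relative to the disrupted part of the gene was not examined. Atm lies on chromosome 9 and none of the 8 ataxia genes does. Atxn1 is on chromosome 13, Atxn2 on 5, Atxn3 on 12, Atxn7 and Fgf14 on 14, Atxn10 on 15, Cacna1a on 8 and Ttbk2 on 2.

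Of the 8 genes, 3 passed the test in Atm-/- NR against Atm-/- veh, Atxn1, Atxn2 and Atxn10. For Atxn2, which was higher, and Atxn10, which was lower, the 300 bases around the annotated start are shown as RefSeq gives them on GRCm38.p6, since both windows hold the same short motif. Capitals mark CGGAAG or, on the other strand, CTTCCG, the core of the sequence that ETS family transcription factors bind. The windows are chr5:121711359-121711658 for Atxn2 and chr15:85336005-85336304 for Atxn10, both on the plus strand.
Atxn2: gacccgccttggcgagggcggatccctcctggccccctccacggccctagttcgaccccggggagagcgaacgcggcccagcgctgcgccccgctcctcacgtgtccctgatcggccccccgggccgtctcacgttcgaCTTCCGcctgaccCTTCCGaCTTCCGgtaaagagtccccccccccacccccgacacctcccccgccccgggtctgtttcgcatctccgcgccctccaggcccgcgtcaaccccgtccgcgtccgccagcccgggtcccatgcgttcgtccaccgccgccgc
Atxn10: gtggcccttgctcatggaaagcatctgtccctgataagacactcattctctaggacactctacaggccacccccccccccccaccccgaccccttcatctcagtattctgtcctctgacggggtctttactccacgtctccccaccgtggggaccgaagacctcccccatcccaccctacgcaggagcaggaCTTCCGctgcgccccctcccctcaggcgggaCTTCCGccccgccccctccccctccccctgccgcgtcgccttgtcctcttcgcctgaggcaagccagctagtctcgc
The Atxn2 window held the motif 3 times and the Atxn10 window 2 times, and 16.9% of 32851 promoter windows of the same length held it at least once. G and C made up 74.3% of the Atxn2 window and 65.3% of the Atxn10 window, and the windows behind this share were not matched for base content. The table matched 6 of the 8 genes with 8 windows and held none for Atxn1, which also changed, or for Cacna1a. The motif was in none of the other windows, a second one of Atxn2 and those of Atxn3, Atxn7, Fgf14 and Ttbk2. Other motifs were counted on both strands too, and all were chosen after the windows were seen. GGGCGG, the GC box, occurred 2 times in each printed window and in 35.7% of all windows. CACGTG, the E-box, occurred 1 time in that of Atxn2, not in that of Atxn10, and in 7.15% of all. CCAAT was in neither printed window and in 37.4% of all. These are matches of letters and not measured binding.

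By their brightest probes, Atxn1 and Atxn2 rose and Atxn10 fell in Atm-/- NR against Atm-/- veh, and the other 5 genes did not pass the test. For Atxn1 and Atxn2 this holds for 1 of 2 probes, and with the probes of each gene averaged neither passed (limma adjusted p = 0.074 and 0.26). In probes, 3 of 14 were called, 2 higher and 1 lower, beside 9.04% of all tested probes, 4.56% higher and 4.48% lower. Counted by genes through the brightest probe, 3 of 8 were called beside 11.5% of all named genes, 6.67% higher and 4.80% lower. Over 8 genes such a count carries little precision. The groups did not overlap for the same 3 of 14 probes and for 20.2% of all tested probes. The median log2 difference of the 14 probes was -0.09, and that of all tested probes -0.00084.

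**Figure D1:**
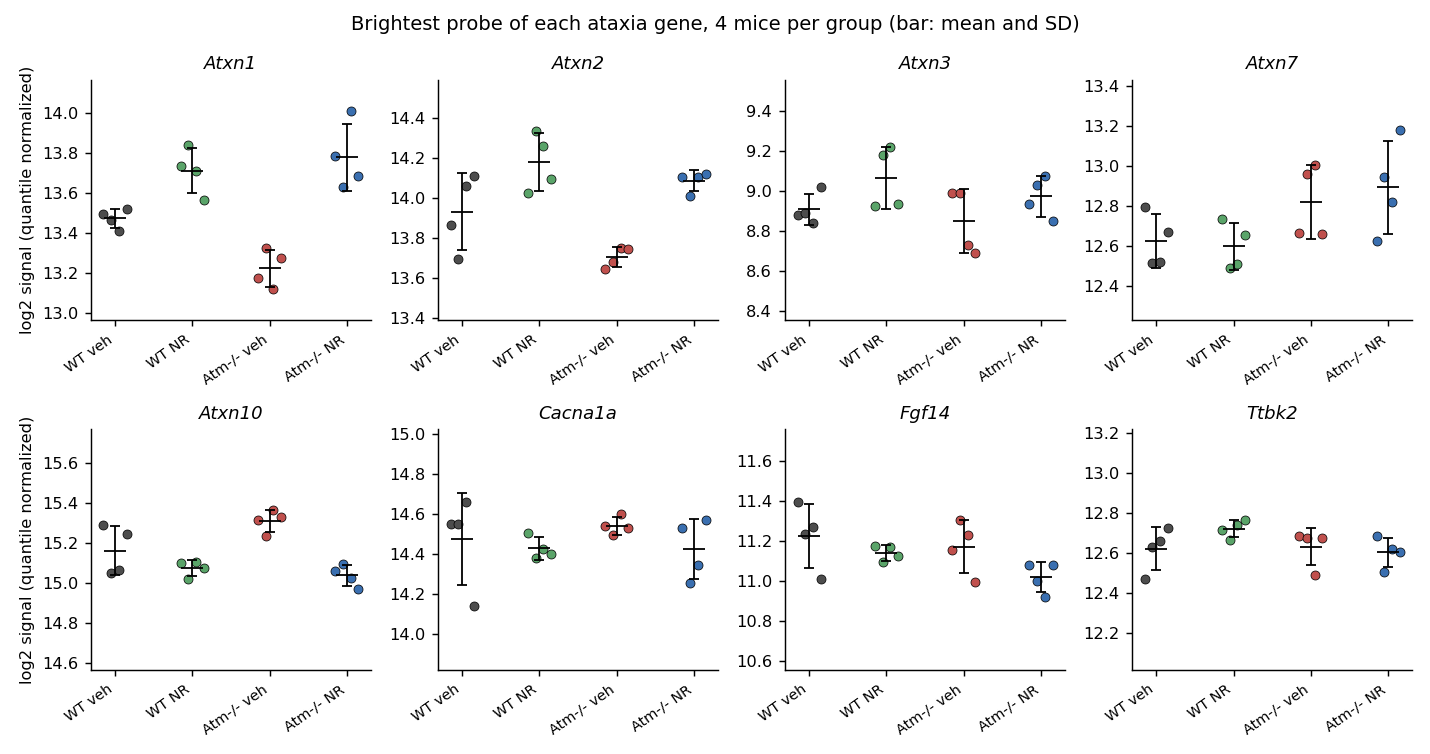
Log2 signal of the brightest probe of each of the 8 genes on every array, by group. Each point is 1 mouse, and bars give the mean and SD over 4 mice. For Atxn1, Atxn2 and Atxn10 the 4 Atm-/- NR points and the 4 Atm-/- veh points do not overlap, and in the other 5 panels they do.

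Atxn1 encodes a nuclear protein that represses transcription together with Capicua, and its human counterpart holds a run of glutamines. Its brightest probe (A_55_P2499913) read 13.18, 13.33, 13.12 and 13.28 in the 4 Atm-/- veh mice and 13.79, 13.63, 14.01 and 13.69 in the 4 Atm-/- NR mice. All Atm-/- NR values lay above all Atm-/- veh values. The log2 difference was 0.55 (SE 0.09, 95% interval 0.36 to 0.74, adjusted p = 0.0068), a ratio of 1.47. In wild type mice the probe read 13.498, 13.46, 13.41 and 13.52 without NR and 13.73, 13.84, 13.71 and 13.57 with it. These groups did not overlap either, but their difference of 0.24 (SE 0.09, adjusted p = 0.58) did not pass the test. In order of level, the group means were 13.22 ± 0.09 in Atm-/- veh, 13.47 ± 0.05 in WT veh, 13.71 ± 0.11 in WT NR and 13.78 ± 0.17 in Atm-/- NR. The last of these neighbours, WT NR and Atm-/- NR, overlapped and differed by 0.07 (SE 0.09, 95% interval -0.12 to 0.26, adjusted p above 0.99). The F test over the 4 groups called Atxn1 (adjusted p = 0.015).

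Atxn2 encodes an RNA-binding protein that associates with the poly(A)-binding protein, and its human counterpart holds a run of glutamines. Its brightest probe (A_55_P2086983) read 13.64, 13.68, 13.75 and 13.75 in Atm-/- veh and 14.11, 14.01, 14.11 and 14.12 in Atm-/- NR. The lowest Atm-/- NR mouse lay above the highest Atm-/- veh mouse. The difference was 0.38 (SE 0.10, 95% interval 0.18 to 0.59, adjusted p = 0.027), a ratio of 1.3. WT veh mice read 13.87, 13.695, 14.06 and 14.11, and WT NR mice 14.02, 14.34, 14.26 and 14.09. The wild type groups overlapped, with a difference of 0.25 (SE 0.10, adjusted p = 0.59). The group means ran from 13.71 ± 0.05 in Atm-/- veh through 13.93 ± 0.19 in WT veh and 14.09 ± 0.05 in Atm-/- NR to 14.18 ± 0.14 in WT NR. Of neighbours in this order, Atm-/- veh and WT veh overlapped, as did WT veh and Atm-/- NR, and Atm-/- NR and WT NR. The F test called Atxn2 (adjusted p = 0.038).

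Atxn10 encodes an armadillo repeat protein of the cytoplasm, and the repeat of the human disease lies in an intron of the gene. Its only probe (A_55_P2807230) read 15.31, 15.24, 15.36 and 15.33 in Atm-/- veh and 15.06, 15.095, 15.03 and 14.97 in Atm-/- NR. Every Atm-/- NR value was below every Atm-/- veh value. The difference was -0.27 (SE 0.07, 95% interval -0.42 to -0.12, adjusted p = 0.029), a ratio of 0.828. WT veh mice read 15.29, 15.05, 15.06 and 15.24, and WT NR mice 15.101, 15.02, 15.104 and 15.08. The wild type groups overlapped, with a difference of -0.09 (SE 0.07, adjusted p = 0.83). The means ran from 15.04 ± 0.05 in Atm-/- NR through 15.07 ± 0.04 in WT NR and 15.16 ± 0.12 in WT veh to 15.31 ± 0.05 in Atm-/- veh, and each pair of neighbours overlapped. The F test did not call Atxn10 (adjusted p = 0.08).

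The call of Atxn1 held when each of the 16 arrays was left out in turn, with differences of 0.48 to 0.60 and limma adjusted p of 0.0062 to 0.03. Atxn2 and Atxn10 were both lost without Atm-/- veh 1, Atm-/- veh 4, Atm-/- NR 3 or Atm-/- NR 4. Atxn2 was also lost without Atm-/- NR 1 (adjusted p of 0.018 to 0.082 over the 16 fits), and Atxn10 without Atm-/- veh 3 or Atm-/- NR 2 (0.022 to 0.079). The number of all probes called ran from 862 without Atm-/- veh 1 to 4405 without WT veh 4, where all 3 genes were called. Without Atm-/- veh 3, the array with raised blood markers, the calls were Atxn1, Atxn2 and the dimmer probe of Ttbk2. With only the arrays that carry Y-gene signal, a choice made after seeing the data, the differences were 0.55 (adjusted p = 0.046) for Atxn1, 0.38 (adjusted p = 0.093) for Atxn2 and -0.23 (adjusted p = 0.16) for Atxn10, in a fit that called 438 probes in all, among them 1 of Ttbk2. With arrays scaled to their 75th percentile in place of quantile normalization, Atxn10 differed by -0.22 (adjusted p = 0.064). The lower number of probes well above background in Atm-/- NR moved with these differences, and its part in them was not tested.

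**Figure D2:**
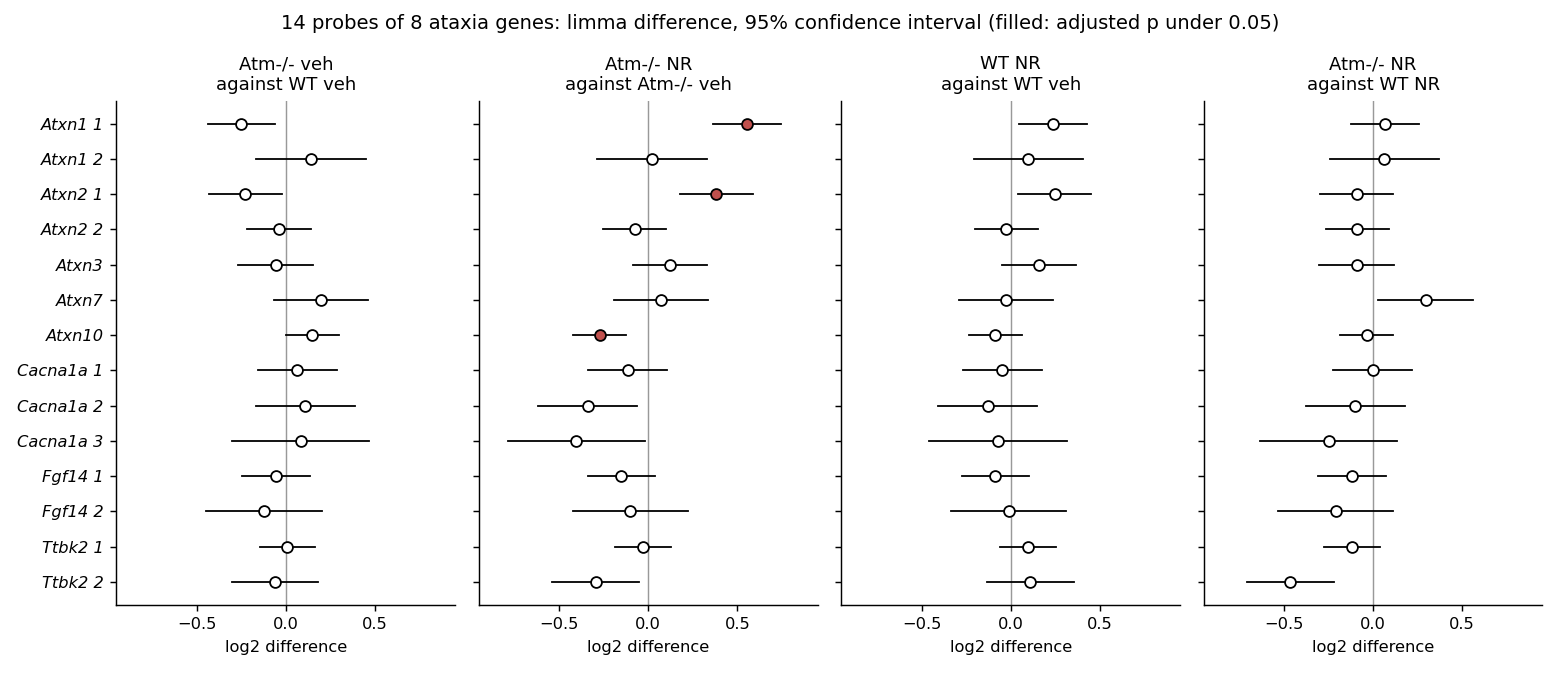
Log2 differences of the 14 probes of the 8 genes in 4 comparisons, as fitted by limma, with 95% confidence intervals, where numbers after a gene count its probes from the brightest. The 3 filled points, all in Atm-/- NR against Atm-/- veh, have an adjusted p under 0.05, at 0.55 for Atxn1, 0.38 for Atxn2 and -0.27 for Atxn10.

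Probes of the same gene did not always move together. The second Atxn1 probe (A_52_P14453), designed on another transcript record than the first, read 9.200, 8.87, 9.06 and 9.498 in Atm-/- veh and 9.37, 8.88, 9.28 and 9.18 in Atm-/- NR. These values overlapped, and the difference was 0.02 (SE 0.14, 95% interval -0.29 to 0.33, adjusted p = 0.95). The second Atxn2 probe (A_51_P254954) was designed on the same record as the first. It read 13.26, 13.27, 13.35 and 13.38 in Atm-/- veh and 13.32, 13.18, 13.21 and 13.24 in Atm-/- NR. These values overlapped as well, with a difference of -0.08 (SE 0.08, 95% interval -0.25 to 0.10, adjusted p = 0.59). With all probes of a gene averaged, Atxn1 differed by 0.29 (SE 0.10, adjusted p = 0.074) and Atxn2 by 0.15 (SE 0.08, adjusted p = 0.26). Only Atxn10, with its single probe, was then called among the 8 genes, at -0.27 (SE 0.06, adjusted p = 0.021).

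The disagreement was measured within arrays as the change of a probe minus the change of another probe of the gene, for 7 pairs of probes, by a two-sided exact permutation test whose smallest possible p is 0.029. Adjustment was over the 7 pairs of each comparison. The first Atxn1 probe changed by 0.53 more than the second (exact p = 0.057, adjusted 0.08) in Atm-/- NR against Atm-/- veh. The first Atxn2 probe changed by 0.46 more than the second (exact p = 0.029, adjusted 0.08), and the groups did not overlap. The brightest Cacna1a probe fell by 0.22 less than the second (exact p = 0.029, adjusted 0.08) and by 0.29 less than the third (exact p = 0.057, adjusted 0.08). The brighter Ttbk2 probe fell by 0.27 less than the dimmer (exact p = 0.057, adjusted 0.08). No pair passed after adjustment. A lone pair at the smallest possible p would have an adjusted p of 0.20, so that 1 pair alone could not have passed. Enough pairs at that p together could have. With arrays scaled to their 75th percentile, these 5 pairs each had an exact adjusted p of 0.040. For Atxn2 the probes also parted in WT NR against WT veh, by 0.27 (exact p = 0.029, adjusted 0.20), and in Atm-/- veh against WT veh, by -0.19 (exact p = 0.029, adjusted 0.20), and for Ttbk2 in Atm-/- NR against WT NR, by 0.35 (exact p = 0.029, adjusted 0.20).

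**Figure D3:**
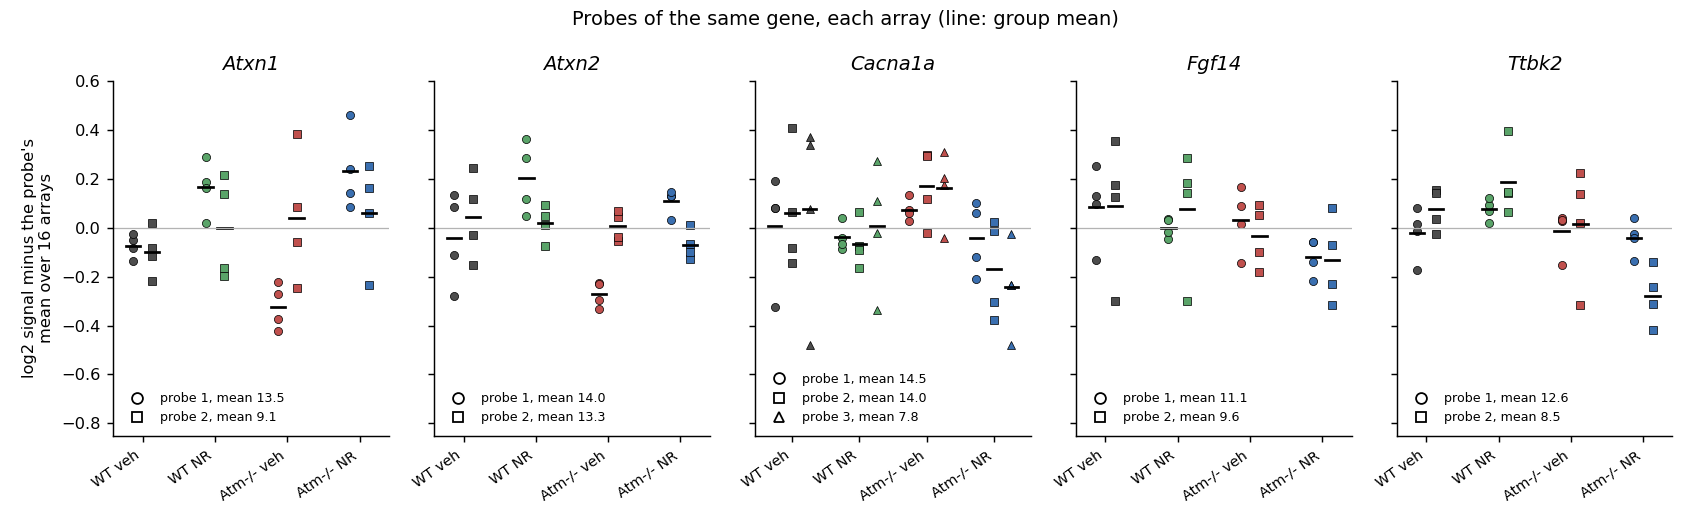
Log2 signal of each probe minus its own mean over the 16 arrays, for the 5 genes with more than 1 probe, by group, where points are arrays, shapes are probes in order of brightness and lines are group means. The first Atxn1 and Atxn2 probes differ by 0.55 and 0.38 between Atm-/- NR and Atm-/- veh, and the second probes of these genes by 0.02 and -0.08.

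Cacna1a encodes the pore of the P/Q-type calcium channel, the main calcium channel of Purkinje cells. Its 3 probes all had lower means in Atm-/- NR than in Atm-/- veh, the ranges overlapped for each, and none passed the test. The brightest read 14.49 to 14.599 in Atm-/- veh and 14.25 to 14.57 in Atm-/- NR, a difference of -0.12 (SE 0.10, adjusted p = 0.50). The second read 14.096, 13.96, 14.27 and 14.27 in Atm-/- veh and 13.96, 13.68, 13.601 and 14.001 in Atm-/- NR, a difference of -0.34 (SE 0.13, adjusted p = 0.11). The third, designed on another transcript record, read 7.72 to 8.06 and 7.28 to 7.73, a difference of -0.40 (SE 0.18, adjusted p = 0.16). WT veh 4, the array with raised choroid plexus and forebrain markers, had the lowest value of its group for all 3 probes, at 14.14, 13.84 and 7.28. Without it, the difference of the brightest probe in Atm-/- veh against WT veh went from 0.07 to -0.05.

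Fgf14 encodes a fibroblast growth factor homologue that is not secreted and binds voltage-gated sodium channels inside neurons. Its brighter probe read 10.996 to 11.31 in Atm-/- veh, 10.92 to 11.08 in Atm-/- NR, 11.01 to 11.39 in WT veh and 11.09 to 11.18 in WT NR. Atm-/- NR lay below WT NR without overlap, with a difference of -0.12 (SE 0.09, adjusted p above 0.99). Against Atm-/- veh it differed by -0.15 (SE 0.09, adjusted p = 0.29). The dimmer probe, designed on another transcript record, differed by -0.10 (SE 0.15, adjusted p = 0.71) in the latter comparison.

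Ttbk2 encodes a kinase that phosphorylates tau and tubulin and is needed to start the primary cilium. Its brighter probe stayed between 12.47 and 12.76 on all 16 arrays, and differed by -0.03 (SE 0.07, adjusted p = 0.84) between Atm-/- NR and Atm-/- veh. Its dimmer probe read 8.75, 8.66, 8.21 and 8.54 in Atm-/- veh and 8.21, 8.103, 8.28 and 8.38 in Atm-/- NR. It read 8.56, 8.495, 8.68 and 8.66 in WT veh and 8.92, 8.66, 8.67 and 8.59 in WT NR. The Atm-/- NR values lay below all WT NR values and overlapped those of Atm-/- veh. The difference was -0.29 (SE 0.11, adjusted p = 0.11) against Atm-/- veh and -0.47 (SE 0.11, adjusted p = 0.38) against WT NR, a ratio of 0.724 in the latter. Neither passed the test. Without Atm-/- veh 3, the lowest Atm-/- veh value of this probe, it was called in Atm-/- NR against Atm-/- veh.

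Atxn3 encodes a deubiquitinase that trims ubiquitin chains. Its single probe read 8.69 to 8.99 in Atm-/- veh, 8.85 to 9.08 in Atm-/- NR, 8.84 to 9.02 in WT veh and 8.93 to 9.22 in WT NR. All 4 ranges shared values, and Atm-/- NR differed from Atm-/- veh by 0.12 (SE 0.10, 95% interval -0.09 to 0.33, adjusted p = 0.44). Atxn7 encodes a subunit of the SAGA complex, a coactivator that modifies histones. Its single probe read 12.66 to 13.004 in Atm-/- veh, 12.63 to 13.18 in Atm-/- NR, 12.51 to 12.79 in WT veh and 12.49 to 12.73 in WT NR. Atm-/- NR differed from Atm-/- veh by 0.07 (SE 0.12, 95% interval -0.19 to 0.34, adjusted p = 0.75), and Atm-/- veh from WT veh by 0.20 (SE 0.12, adjusted p = 0.48).

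Without NR, none of the 8 genes differed between the genotypes past the threshold. In Atm-/- veh against WT veh limma called 0 of 14 probes, beside 0.0537% of all tested probes and 0.0538% of named genes. At an unadjusted p under 0.05 there were 3 of 14 probes and 5442 of 37253. These 3 were the brightest probes of Atxn1 (-0.25, SE 0.09, adjusted p = 0.25), Atxn2 (-0.23, SE 0.10, adjusted p = 0.30) and Atxn10 (0.15, SE 0.07, adjusted p = 0.34). Each sign is opposite to that in Atm-/- NR against Atm-/- veh, but the Atm-/- veh arrays enter both comparisons. The groups did not overlap for 1 of 14 probes, that of Atxn1, and for 7.60% of all tested probes. Of the 14 probes, 7 had a higher and 7 a lower mean in Atm-/- veh. Without WT veh 4 the count stayed at 0 of 14.

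In wild type mice, none of the 8 genes differed with NR past the threshold. In WT NR against WT veh limma called 0 of 14 probes and 0% of all tested probes, with 2 of 14 and 2838 of 37253 at an unadjusted p under 0.05. The 2 were the brightest probes of Atxn1 and Atxn2 given above. Atxn1 was the 1 of 14 probes whose groups did not overlap, beside 4.09% of all tested probes. The difference between the responses to NR in the 2 genotypes was tested in the same fit, and limma called it for 0 of 14 probes and 0% of all tested probes, with 2 of 14 and 1962 of 37253 at an unadjusted p under 0.05. It was 0.31 (SE 0.13, adjusted p = 0.84) for Atxn1, 0.14 (SE 0.13, adjusted p = 0.88) for Atxn2 and -0.19 (SE 0.10, adjusted p = 0.84) for Atxn10. For the dimmer Ttbk2 probe it was -0.41 (SE 0.16, adjusted p = 0.84). The 3 calls in Atm-/- mice are thus not shown to differ from the response of wild type mice.

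With NR in both genotypes, Atm-/- NR against WT NR, limma called 0 of 14 probes, beside 0.0537% of all tested probes and 0.0597% of named genes. At an unadjusted p under 0.05 there were 2 of 14 and 1941 of 37253, those of Atxn7 (0.29, SE 0.12, adjusted p = 0.92) and the dimmer one of Ttbk2. The groups did not overlap for 2 of 14 probes, the brighter one of Fgf14 and the dimmer one of Ttbk2, and for 4.0% of all tested probes. Of the 14 probes, 11 had a lower mean in Atm-/- NR. Their median log2 difference was -0.09, beside 0.0010 for all tested probes. Some of these probes belong to the same gene, and by the brightest probe 2 of the 8 genes had a higher mean. The F test over the 4 groups called 2 of 14 probes, those of Atxn1 and Atxn2, beside 4.84% of all tested probes and 6.14% of named genes.

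Over the 16 arrays, which share slides and groups, the levels of some of the genes ran together by their brightest probes. Each gene in this paragraph is read by its brightest probe, and the other probes of Atxn1 and Atxn2 were not compared in this way. As a description, Atxn1 had a Pearson r of 0.80, Spearman rho 0.77, with Atxn2 and of -0.79, Spearman rho -0.71, with Atxn10. Cacna1a had an r of 0.61, Spearman rho 0.58, with Fgf14. Among the 16736 other named genes, those with the highest r were Gse1 (0.95), Rabep2 (0.94) and Tlcd5 (0.93) for Atxn1. For Atxn2 they were Ube3a (0.95), Fgf12 (0.95) and Tmem131 (0.92), where Ube3a is the ubiquitin ligase gene of Angelman syndrome and Fgf12 a paralog of Fgf14. For Atxn10 they were Mturn (0.94), Gng3 (0.93) and Mt3 (0.93), where Mt3 encodes a metallothionein of the brain. They were Gpr21 (0.88), Tchh (0.84) and Gm9962 (0.84) for Atxn3 and Nrp2 (0.96), Bpifc (0.96) and Tmem239 (0.96) for Atxn7. They were Atoh7 (0.91), Il16 (0.91) and Rev1 (0.89) for Cacna1a and Plk5 (0.89), Dip2b (0.86) and Ranbp17 (0.86) for Fgf14. For Ttbk2 they were Cyp51 (0.78), Hivep2 (0.76) and Nmt2 (0.75). Without the 2 arrays farthest from the median of the gene, r was 0.93 for Atxn1 and Gse1 and 0.94 for Atxn2 and Ube3a, but 0.35 for Ttbk2 and Nmt2.

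**Figure D4:**
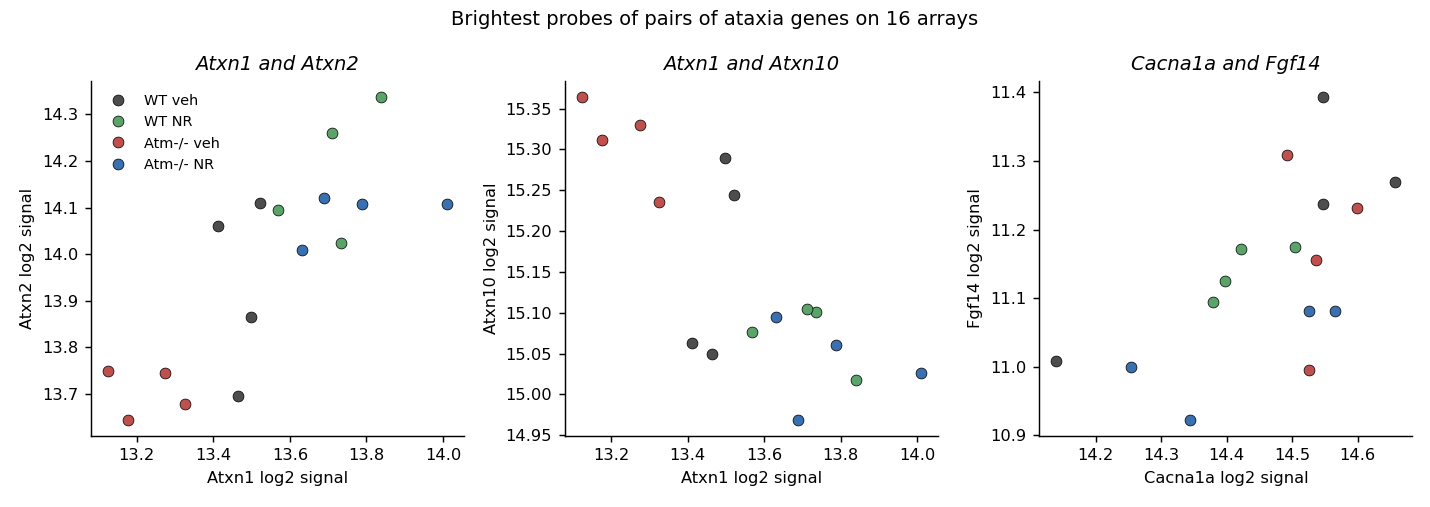
Log2 signal of the brightest probes of Atxn1 and Atxn2, of Atxn1 and Atxn10, and of Cacna1a and Fgf14 on the 16 arrays, coloured by group. The 4 Atm-/- veh arrays have the lowest Atxn1 signals, up to 13.33, and WT veh 4 has the lowest Cacna1a signal, at 14.14.

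Other genes of inherited ataxias, and genes whose proteins work with those of the 8, were read from lists. In Atm-/- NR against Atm-/- veh, 4 of 32 measured genes of other dominant ataxias were called, 2 higher and 2 lower, a share of 12.5% beside the 11.5% of all named genes. Their median difference was 0.08, and that of all named genes 0.04. Atn1 is the gene of dentatorubral-pallidoluysian atrophy, and its human protein too holds a run of glutamines. It read 12.54 to 12.86 in Atm-/- veh and 11.83 to 12.25 in Atm-/- NR. It fell by 0.67 (SE 0.12, adjusted p = 0.0089), with no overlap. Stub1, which encodes the ubiquitin ligase CHIP, fell by 0.27 (SE 0.08, adjusted p = 0.049). Afg3l2, which encodes a protease of the inner mitochondrial membrane, rose by 0.42 (SE 0.11, adjusted p = 0.026). Its other probe differed by 0.25 (SE 0.21, adjusted p = 0.46) and was not called. Kcna1, a potassium channel gene of episodic ataxia, rose by 0.40 (SE 0.11, adjusted p = 0.038). The highest difference was that of Zfhx3, 1.61 (SE 0.83, adjusted p = 0.23), whose Atm-/- NR values ran from 7.34 to 10.56. In Atm-/- veh against WT veh 0 of 32 were called, with differences from -0.58 for Zfhx3 (SE 0.83, adjusted p = 0.78) to 0.35 for Atn1 (SE 0.12, adjusted p = 0.23).

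Of 25 measured genes of recessive ataxias, 5 were called in Atm-/- NR against Atm-/- veh, 2 higher and 3 lower, a share of 20% beside the 11.5% of all named genes. Their median difference was -0.07, beside 0.04 for all named genes. Car8, which encodes a protein that binds the IP3 receptor in Purkinje cells, read 13.48 to 14.24 in Atm-/- veh and 15.09 to 15.21 in Atm-/- NR. It rose by 1.102 (SE 0.31, adjusted p = 0.042), and its second probe by 1.197 (SE 0.24, adjusted p = 0.014). In wild type mice it read 12.45 to 14.36 in WT veh and 14.86 to 15.24 in WT NR, a difference of 1.43 (SE 0.31, adjusted p = 0.37) that did not pass the test, and the responses of the genotypes differed by -0.32 (SE 0.44, adjusted p = 0.90). Wwox, an oxidoreductase gene, fell by 0.38 (SE 0.06, adjusted p = 0.0068), while its other probe differed by -0.07 (SE 0.24, adjusted p = 0.88). Atcay, which encodes caytaxin, fell by 0.36 (SE 0.10, adjusted p = 0.04), while its other probe differed by 0.02 (SE 0.13, adjusted p = 0.95). Stub1 is on this list too. In Atm-/- veh against WT veh 0 of 25 were called, and the highest difference was 0.47 for Car8 (SE 0.31, adjusted p = 0.50).

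The partners of the 8 genes were binding partners, subunits of the same complexes and paralogs, of which 57 of 58 were measured. In Atm-/- NR against Atm-/- veh 5 of 57 were called, 3 higher and 2 lower, a share of 8.77% that is below the 11.5% of all named genes, and their median difference was -0.03. Called were 0 of 3 partners of Atxn1, 0 of 6 of Atxn2, 0 of 11 of Atxn7, 0 of 2 of Atxn10 and 0 of 11 of Cacna1a. Of the 8 of Atxn3, Rad23b, which encodes a ubiquitin receptor that brings cargo to the proteasome, rose by 0.39 (SE 0.09, adjusted p = 0.02), with 0.65 (SE 0.29, adjusted p = 0.16) and -0.01 (SE 0.17, adjusted p = 0.98) for its other probes, and Stub1 fell as above. Of the 10 of Fgf14, its paralog Fgf12 rose by 0.35 (SE 0.07, adjusted p = 0.017). The other Fgf12 probes differed by 0.20 (SE 0.08, adjusted p = 0.13), 0.21 (SE 0.08, adjusted p = 0.12) and 0.48 (SE 0.14, adjusted p = 0.048). The sodium channel gene Scn8a fell by 0.28 (SE 0.07, adjusted p = 0.035), while its other 3 probes lay between -0.03 and 0.21 and were not called. Of the 6 of Ttbk2, Mapre1, which encodes a protein of growing microtubule ends, rose by 0.23 (SE 0.05, adjusted p = 0.021).

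The sodium channel genes Scn1a (adjusted p = 0.045) and Scn4b (adjusted p = 0.028) were called by the F test and in no pairwise comparison of their brightest probes. For Scn1a the probes parted in Atm-/- NR against Atm-/- veh, with 0.25 (SE 0.10, adjusted p = 0.12) for the brightest and -0.58 (SE 0.10, adjusted p = 0.0089) for another. A further Scn1a probe differed by -0.10 (SE 0.12, adjusted p = 0.64). The highest difference among the partners was that of Scn3a, 1.76 (SE 1.09, adjusted p = 0.31), and the most negative that of Cacna1d, -0.40 (SE 0.12, adjusted p = 0.052). In Atm-/- veh against WT veh 0 of 57 were called, and the differences ran from -1.42 for Scn3a (SE 1.09, adjusted p = 0.57) to 0.41 for Josd2 (SE 0.20, adjusted p = 0.37).

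**Figure D5:**
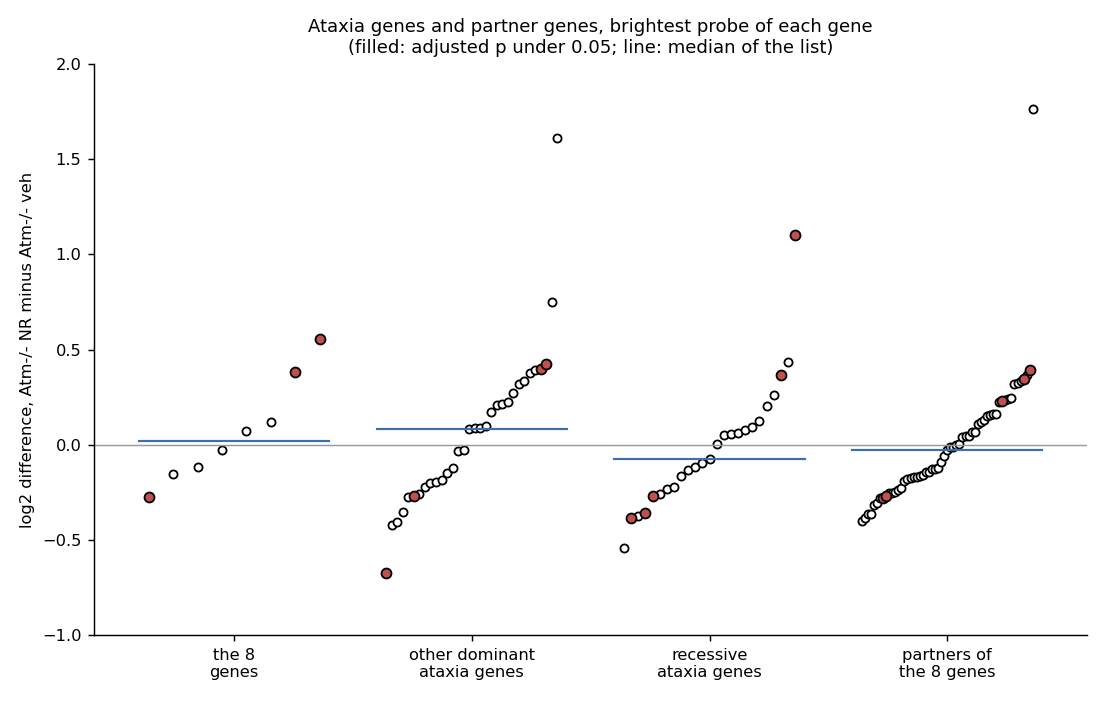
Log2 differences in Atm-/- NR against Atm-/- veh of the brightest probe of each measured gene in 4 lists, where filled points have an adjusted p under 0.05 and lines are the medians of the lists. Of the genes shown, 3 of 8, 4 of 32, 5 of 25 and 5 of 57 are filled, in both directions in each list, and Stub1 stands in 3 of them.

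Among the cell type markers, 1 of 7 Purkinje cell markers was called in Atm-/- NR against Atm-/- veh, Car8, beside the 11.5% of all named genes, and the median difference of the 7 was -0.05. Of 7 granule cell markers 1 was called, Slc17a7, a vesicular glutamate transporter gene (-0.54, SE 0.13, adjusted p = 0.026), and their median difference was 0.02. None of the markers of the other cell types was called in this comparison. Their median differences were -0.21 for 5 measured inhibitory interneuron markers, -0.23 for 6 endothelium markers, of which 1 was higher, and -0.32 for 3 blood markers, of which 0 were higher. They were 0.28 for 4 choroid plexus markers and between -0.09 and 0.01 for those of astrocytes and Bergmann glia, oligodendrocytes and their precursors, microglia and forebrain neurons. The forebrain marker Neurod6 was called by the F test (adjusted p = 0.014). The mean of the Purkinje cell markers, relative to all arrays, ran from -0.21 to 0.17 in Atm-/- veh and from 0.03 to 0.17 in Atm-/- NR. That of the granule cell markers ran from -0.10 to 0.07 and from -0.01 to 0.05. Means of the endothelium markers ran from -0.20 to 0.47 and from -0.21 to -0.06, and those of the blood markers from -0.74 to 2.33 and from -0.12 to 0.12. Their part in the differences of the ataxia genes was not tested.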

How the data were processed

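The authors deposited Agilent Feature Extraction 12.0.3.1 files of 16 arrays, with a background-subtracted intensity for each spot and flags of spots above background or outlying, and a table of scores (z-scores) used here as an alternative. Groups and replicate numbers follow the labels, which name separate mice. Probes were named by accession through RefSeq (GRCm38.p6, names only). Kept were 37253 probes seen on every array of some group, where a probe needed a share of 0.5 of its spots above background. Log2 intensities were quantile normalized, outlying spots set aside and spots averaged. limma 3.58.1 (with R 4.3.3 and the data.table package, version 1.17.8) fitted 4 group means, with 12 residual degrees of freedom, and p-values were adjusted by Benjamini-Hochberg over all kept probes. The fit was tested on simulated data. The brightest probe stood for a gene, and a marker list was summarised per array by averaging its genes after centring each on all arrays. The number of arrays limits the precision.

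Named were the 8 genes with every probe, Atm, each called gene of the other lists, the largest rise and fall in each ataxia and partner list for Atm-/- veh against WT veh and Atm-/- NR against Atm-/- veh, and the 3 genes most like each of the 8. Some genes that this rule names are not reported here. Genes and lists were chosen with earlier results of these data known. Alternatives were 75th percentile scaling, normexp (offset 50), z-scores, other filters, a replicate block, array weights, the 2 groups alone, a threshold of 0.1, averaged probes, the methods' tests and leaving out arrays.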

Additional observations from a re-analysis of the deposited data

Results flagged for a closer look

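Of 56 sets of 4 arrays (14 probes in 4 groups), 2 held an array far from the other 3, where chance alone gives about 1 in 20. For the brightest Atxn2 probe, Atm-/- NR 2 (14.01) lay below its group, the nearest array of which read 14.11, and this gap took up a share of 0.871 of the range of the group. Without this array Atxn2 still passed the test in Atm-/- NR against Atm-/- veh (0.41, limma adjusted p = 0.0499). For the brighter Ttbk2 probe, Atm-/- veh 3 (12.49) lay below the nearest array (12.67), a gap with a share of 0.9498 of the range. Atm-/- veh 3 is 1 of the 4 arrays without signal of Y-linked genes.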

How the results depend on the processing

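Of the fitted differences of the 8 genes and their probe pairs, 977 kept direction and side of the threshold under the alternatives, 14 lost the call, 5 gained it and 31 turned sign, counted once for each value and alternative. Most of the 977 had not passed the test to begin with. The calls in Atm-/- NR against Atm-/- veh were kept under 25 of 25 alternatives for Atxn1, 19 for Atxn2 and 17 for Atxn10. Averaged probes and the methods' tests are not among these 25. For the comparison of Atm-/- NR against Atm-/- veh, 3 of 14 probes were called, beside 3366 of all 37253. With array weights it was 5, beside 6799 of all. The methods' t-test at their threshold called 5, beside 10019, and 3 after Benjamini-Hochberg, beside 3184. By the rule of the supplementary methods it was 0, beside 1285. With probes averaged it was 1 of 8 genes, beside 1553 of 16737. With each array left out it was 1 to 3, beside 862 to 4405. In Atm-/- veh against WT veh the methods' t-test at their threshold called 1 probe, beside 4369 of all. In WT NR against WT veh it called 1, beside 2476. In Atm-/- NR against WT NR it called 3, beside 2392, where the rule of the supplementary methods called 1, beside 566. The F test called 2 probes, beside 1802 of all, and 1 without a filter on dim probes, beside 1159 of 55092. It called 1 with the replicate block, beside 1154, and 4 with array weights, beside 5715. At a threshold of 0.1 it called 4, beside 4280, and with probes averaged 0, beside 917 of 16737 genes. With arrays that carry Y-gene signal only (chosen after seeing the data) it called 0, beside 73. With each array left out it called 0 to 2, beside 186 to 2766. The replicate block left the 3 calls in Atm-/- NR against Atm-/- veh. Of 24 same-number pairs of arrays 6 correlated above 0.1 (-0.33 to 0.37). Pairs of different numbers were not examined, so this does not settle whether the numbers pair the mice. The replicate number equalled the column on the slide in each group, so number and column cannot be told apart. With only the arrays of both groups compared, the Atm probe differed by -0.87 (limma adjusted p = 0.083). The cause of these moves was not tested.

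Sign turns concerned differences that had not passed the test. With 75th percentile scaling Ttbk2 read -0.0289 in Atm-/- veh against WT veh and 0.00979 in Atm-/- NR against Atm-/- veh, and Cacna1a 0.0158 in Atm-/- NR against WT NR. With normexp Cacna1a read 0.00164 in that comparison, Atxn7 0.00362 in WT NR against WT veh, and the second minus the third Cacna1a probe -0.0765 in Atm-/- NR against Atm-/- veh. With array weights Cacna1a read -0.0108 in Atm-/- veh against WT veh and Atxn7 0.0091 in WT NR against WT veh. With each array left out, the range in Atm-/- veh against WT veh was -0.0458 to 0.127 for Cacna1a, -0.128 to 0.00381 for Fgf14 and -0.0409 to 0.0565 for Ttbk2. In Atm-/- NR against Atm-/- veh it was -0.0255 to 0.159 for Atxn7 and -0.075 to 0.0037 for Ttbk2. In WT NR against WT veh it was -0.072 to 0.0298 for Atxn7 and -0.158 to 0.0148 for Cacna1a. In Atm-/- NR against WT NR it was -0.0112 to 0.115 for Atxn1 and -0.0512 to 0.0527 for Cacna1a. For the difference between the genotypes' responses it was -0.0879 to 0.0162 for Atxn3, -0.13 to 0.0422 for Cacna1a and -0.124 to 0.00777 for Fgf14.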
